A study of Mus musculus with 2 samples.

Results

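The genes described here are 7 members of the MHC class II pathway, chosen by symbol among the 55536 genes of the deposited tables: H2-Aa, H2-Ab1, H2-Eb1, H2-DMa, H2-DMb1, Cd74 and Ciita. All 7 were found, and all 7 were detected, that is, listed at a TPM (a share of all transcripts, corrected for length) of 1 or more in both libraries. The RNA came from nuclei of bone-marrow-derived macrophages (BMDM), primary cells of C57BL/6J mice. All cells had received 100 ng/ml of Lipid A, the TLR4-binding part of bacterial lipopolysaccharide, for 12 h, then 12 h without it, then the same dose for a further 120 min before collection. The single group held 2 biological replicates, from 1 µg of RNA for replicate 1 and 500 ng for replicate 2, so input and replicate cannot be told apart, and since both carry the same donor label, p-values and spreads between them may reflect technical variation. The fraction is labelled nuclear in some fields and nucleoplasmic in another. Untreated or once-treated cells were not analysed here, so the values below are levels and no effect of Lipid A was measured.

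MHC class II molecules are pairs of an alpha and a beta chain that display peptides from endosomes to CD4 T cells. H2-Aa with H2-Ab1 encode the molecule I-A, and H2-Eb1 encodes the beta chain of the molecule I-E, whose alpha chain comes from H2-Ea. Cd74 is the invariant chain, which escorts new class II molecules to endosomes and blocks their groove, and H2-DMa with H2-DMb1 form H2-DM, which exchanges the remnant of Cd74 for other peptides. Ciita is the coactivator that these genes depend on: it does not bind DNA but is recruited to their promoters by a complex of RFX, NF-Y and CREB proteins on elements named the X and Y boxes. Macrophages are known to use class II genes less than dendritic cells or B cells do unless interferon gamma induces Ciita.

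The libraries held 28450309 and 16940220 expected counts on genes in replicates 1 and 2. Mitochondrial genes took 4.15% and 10.3% of these counts, and genes of under 200 bases of effective length took 76.8% and 61.9% of all TPM, so a TPM of any other gene depends on how much of those short RNAs a library held. A count of 0 allows up to 3 counts, which is 0.105 CPM (counts scaled to library size) in the first library and 0.177 in the other (counting error only, since PCR copies were not marked). Macrophage markers were present: all 7 of the list were detected, the highest being Lyz2, the gene of a lysozyme, at 1300.2 and 1229 TPM.

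In mm10 with GENCODE M21, the 5 H2 genes lie together on chromosome 17. H2-DMa (ENSMUSG00000037649.10) spans 34119541 to 34139101 and H2-DMb1 (ENSMUSG00000079547.4) spans 34153072 to 34160230, both on the plus strand. H2-Ab1 (ENSMUSG00000073421.6) spans 34257689 to 34269419 on the plus strand, H2-Aa (ENSMUSG00000036594.15) spans 34282744 to 34287823 on the minus strand, and H2-Eb1 (ENSMUSG00000060586.11) spans 34305867 to 34316674 on the plus strand. The other two genes lie elsewhere: Cd74 (ENSMUSG00000024610.15) at 60803848 to 60812652 of chromosome 18 and Ciita (ENSMUSG00000022504.10) at 10480059 to 10528418 of chromosome 16, both on the plus strand.

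Cd74 was the most abundant of the 7, at 205.7 TPM in replicate 1 and 195.4 TPM in replicate 2, and stood above 99.5% and 99.4% of the 22028 protein-coding genes. The I-A chains followed. H2-Ab1 had 53.5 and 45.5 TPM and H2-Aa had 45.4 and 42.8 TPM in replicates 1 and 2. H2-Eb1 had 41.0 and 27.3 TPM, the widest gap between the libraries of these 4 genes. H2-DMa was lower, at 16.2 and 18.1 TPM. Ciita, at 6.55 and 7.83 TPM, and H2-DMb1, at 8.06 and 5.10 TPM, were the lowest of the 7, yet Ciita still stood above 80.2% and 77.5% of protein-coding genes and H2-DMb1 above 82.8% and 71.9%. For comparison, 18.8% of all genes and 39.6% of protein-coding genes were detected in both libraries, and the 8726 detected protein-coding genes had a median of 6.53 and 9.53 TPM. Ciita thus lay near that median, and the 6 genes it is known to act on ranged from H2-DMb1, which lay below it in replicate 2, to Cd74. In bulk RNA, fewer cells that use a gene and less RNA of it per cell cannot be told apart.

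**Figure D1:**
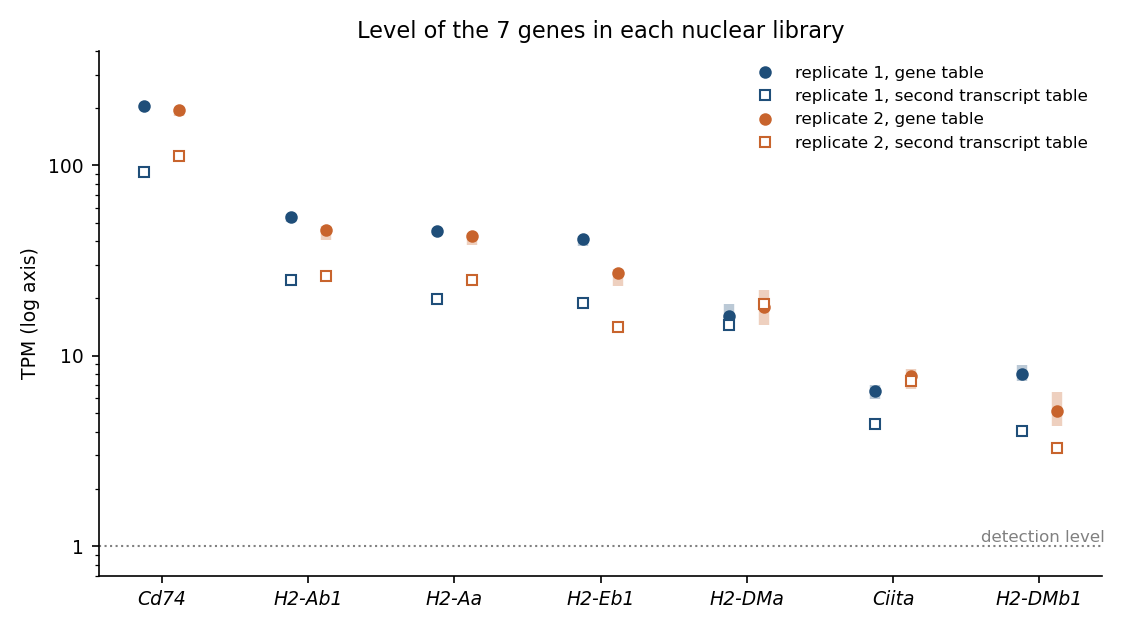
TPM of each of the 7 genes (log axis), in order of the mean of both libraries; filled circles are the gene tables, pale bars their deposited intervals, and open squares the second transcript table summed per gene. Cd74 lies near 200.6 TPM on average, and every point lies above the detection level of 1 TPM.

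The order of the mean levels was Cd74 (200.6 ± 7.24 TPM, SD, n = 2), H2-Ab1 (49.5 ± 5.67), H2-Aa (44.1 ± 1.85), H2-Eb1 (34.1 ± 9.67), H2-DMa (17.2 ± 1.39), Ciita (7.19 ± 0.905) and H2-DMb1 (6.58 ± 2.09). Cd74 exceeded H2-Ab1 by 1.94 and 2.10 on the log2 scale of TPM in the 2 libraries, and their deposited credibility intervals, whose level is not stated, did not overlap. H2-Ab1 and H2-Aa did not differ beyond those intervals in replicate 2, where the difference was 0.09 (log2). By the gene tables, Ciita and H2-DMb1 changed places. The log2 difference of Ciita over H2-DMb1 was -0.30 in replicate 1, with overlapping intervals, and 0.62 in replicate 2. A further tool, called the second tool here, placed 36269716 and 30920780 counts on genes in replicates 1 and 2, more than the gene tables held. It gave a lower TPM than the gene tables for 13 of the 14 values, all but H2-DMa in replicate 2, with Cd74 at 92.8 and 112.7 TPM. It turned the order of H2-Eb1 and H2-DMa in replicate 2, with a log2 difference of -0.39. It also placed Ciita above H2-DMb1 in both libraries, by 0.13 and 1.17 (log2), so those genes did not change places by that tool. The deposited interval of a level is centred on the posterior mean, another estimate from the same reads, and for Cd74 in replicate 2 it ran from 180.8 to 192.1 TPM, below the deposited TPM.

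The alpha and beta chains of I-A were close to each other. H2-Aa was 0.847 times H2-Ab1 in replicate 1 and 0.939 times in replicate 2, a log2 difference of -0.16 ± 0.10 (SD, n = 2). Most of H2-Aa was on its main coding transcript, H2-Aa-201, with 95.7% and 92.9% of the gene's TPM (second tool 92.4% and 81.7%). The main coding transcript of H2-Ab1 held 86.3% and 79.0%. Transcripts of the type retained intron took 3.25% and 4.65% of H2-Aa and 12.5% and 14.3% of H2-Ab1. Both genes lay below the median retained-intron share of the 6822 protein-coding genes that have such a transcript and a mean count of 10 or more, 23.4% and 29.7%. On coding transcripts alone, a split chosen after the values were seen, H2-Aa was 0.927 and 1.02 times H2-Ab1.

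H2-Eb1 differed from the I-A chains in the transcripts that its reads were assigned to. Its transcript ENSMUST00000236232.1 is typed as subject to nonsense-mediated decay, the pathway that removes RNAs with an early stop codon, and this decay form held 49.4% and 69.6% of the TPM of H2-Eb1 in replicates 1 and 2. By the second tool it held 47.2% and 57.7%. Both coding transcripts together held 19.2% and 11.1% (second tool 18.8% and 30.99%), and those of the retained-intron type 31.4% and 19.3% (second tool 34.0% and 11.3%). Among the 3391 protein-coding genes with a transcript of the decay type, the median share was 3.09% and 1.60%, and 95.6% and 97.7% of them had a lower share than H2-Eb1. In TPM, the decay form stood at 20.2 (deposited interval 17.2 to 22.1) and 19.0 (14.5 to 20.15), while the longest coding form, ENSMUST00000235530.1, stood at 7.39 (5.84 to 8.92) and 2.06 (0.929 to 3.57). The coding form had the lower level in both libraries, and within each library the deposited intervals of the 2 forms did not overlap. Exon 2 of the decay form begins 53 bases later than that of the coding form, which is not a whole number of codons, and its annotated coding part is 276 bases against 792. The stretch is shown because it sets the decay form apart within the coding sequence. Capitals mark the 53 coding bases, chr17:34309591-34309643 on the plus strand of mm10, that the decay form skips, with 18 bases of exon 1 before them and 30 bases of exon 2 after them, from the GENCODE M21 transcripts.
H2-Eb1 coding form: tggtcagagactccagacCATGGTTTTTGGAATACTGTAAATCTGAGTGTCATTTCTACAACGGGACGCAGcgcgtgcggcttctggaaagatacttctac
H2-Eb1 decay form: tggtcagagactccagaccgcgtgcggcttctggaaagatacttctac

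The pair of transcripts also differs at the ends: the coding form has 59 bases more at its start and 475 more at its end. The deposited shares therefore rest on all of these stretches, and reads across the junction itself were not counted here. An antisense gene, Gm20513, overlaps 2204 bases of H2-Eb1 on the other strand. The gene tables listed Gm20513 at 0 counts in both libraries and the second tool at 11.4 and 27.3 TPM, against 19.0 and 14.2 TPM for H2-Eb1. The strand setting is not given in the sources used here, so reads of the 2 genes cannot be told apart with certainty.

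The H2-DM chains looked unequal as genes and nearly equal as coding transcripts. H2-DMa was 2.01 times H2-DMb1 in replicate 1 and 3.55 times in replicate 2, against 3.63 and 5.72 times by the second tool. On coding transcripts alone, chosen after the values were seen, the ratio was 1.12 and 1.37, and by the second tool 1.06 and 1.27. The rest of H2-DMa was mostly on processed transcripts without a coding part, which held 44.3% and 63.7% of its TPM and 71.2% and 77.6% by the second tool. The largest of them was H2-DMa-203, of 350 bases, to which 34.4% and 50.1% of the TPM was assigned from 32.7 and 25.7 expected counts (second tool 44.1% and 46.8%). H2-DMa-204 held 3.66% and 2.36%, but 19.3% and 21.2% by the second tool. Over its short effective length the counts of H2-DMa-203 gave 5.56 TPM (deposited interval 3.53 to 7.67) and 9.08 TPM (5.44 to 12.4). Coding transcripts held 54.4% and 36.3% of the TPM of H2-DMa, 24.5% and 19.4% by the second tool, and 84.5% and 72.8% of its expected counts. The main coding transcript was H2-DMa-205, with 47.4% and 29.4% of the TPM (second tool 20.9% and 16.5%), and H2-DMa-201 held 4.17% and 4.8%. H2-DMa-201 and H2-DMa-205 carry coding parts of the same length, 783 bases, but start at 34122832 and 34135628. H2-DMb1 had 97.5% and 94.6% of its TPM on its only coding transcript (second tool 83.4% and 87.7%). Some letters of both genes occur elsewhere: of the 31-base words of H2-DMb1 transcripts, 31.4% also occur in H2-DMb2, its neighbour, and 9.23% of those of H2-DMa occur, on either strand, in Brd2, which overlaps H2-DMa by 3094 bases on the other strand. Brd2 had 97.1 and 132.7 TPM, and H2-DMb2 had 0.160 and 0.0800 TPM by the gene tables and 0.230 and 0.467 by the second tool. The split of reads between these neighbours is therefore uncertain.

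Cd74 was almost wholly on 2 coding transcripts. The short form (ENSMUST00000050487.15) held 70.9% and 74.3% of the TPM, and the long form (ENSMUST00000097563.8) held 28.1% and 25.7%. The long form contains an additional exon of 192 bases, 64 codons, which as background is known to encode a domain that inhibits cysteine proteases in the invariant chain. In TPM the short form stood at 145.9 and 145.3 and the long form at 57.8 and 50.2, so the long form alone was above each of the other 6 genes in both libraries, with deposited intervals that overlapped those of H2-Ab1. The second tool gave the long form a larger share, 30.5% and 31.7%, and the short form a smaller share, 62.2% and 65.0%. A transcript of the retained-intron type took 1.00% of Cd74 in replicate 1 and was listed at 0 in replicate 2, while the second tool gave this type 7.28% and 3.31%. In replicate 1, 7.53% of the genes compared for that share lay below Cd74.

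For Ciita, 8 annotated transcripts begin in 3 groups of start sites, and both libraries held RNA assigned to each group, though not to each transcript. As background, mouse Ciita is transcribed from promoters named pI, used mainly in conventional dendritic cells, pIII, used mainly in B cells, and pIV, which responds to interferon gamma; the tables do not name them, and the groups are called here by position. The first group starts at 10480059 to 10480164 and held 9.02% and 4.34% of the TPM of Ciita, from 91.9 and 21.5 expected counts. Of these counts, 74.4 and 21.5 were on Ciita-207, which is of the retained-intron type. Its coding transcripts were Ciita-205, at 1.35% and 0%, and Ciita-206, at 0% in both libraries. By the second tool Ciita-205 held 1.24% and 0.193%, and Ciita-206 held 3.33% and 1.04%. The middle group, 8.12 kb downstream, held 43.6% and 30.5%, mostly on Ciita-201. The last group, 9.69 kb downstream, held 47.4% and 65.2%, with 31.1% and 54.6% of Ciita on Ciita-204 and 11.2% and 7.04% on the short Ciita-208. Ciita-208 rested on 16.05 and 5.35 expected counts. Ciita-203, the transcript of this group with 19 exons, held 5.08% and 3.57% (second tool 5.13% and 1.38%). By the second tool Ciita-208 held 32.05% and 32.3%, more than Ciita-204 in replicate 1 (23.1%) and close to it in replicate 2 (34.2%). By expected counts the order of the middle and last groups turned: the middle group held 71.7% and 60.9% of Ciita and the last group 19.8% and 34.3%. The second tool gave 10.6%, 29.2% and 60.2% of TPM in replicate 1, and 5.70%, 26.4% and 67.9% in replicate 2. The first group was thus the smallest by every measure used. Ciita-201 (39.3% and 25.7% of TPM) differs from Ciita-203, of the last group, by 146 bases in its first exon and by 1992 bases at its end, so its share rests on the 3' end as well as on its start. Ciita-204 has 2 exons, and 1538 of its 1620 bases are not exonic in Ciita-203. Reads from the unspliced RNA of any form could match those bases, and their part in the share was not tested. Dexi overlaps 25888 bases of Ciita on the other strand and had 3.45 and 4.46 TPM, and for it too the strand setting matters.

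**Figure D2:**
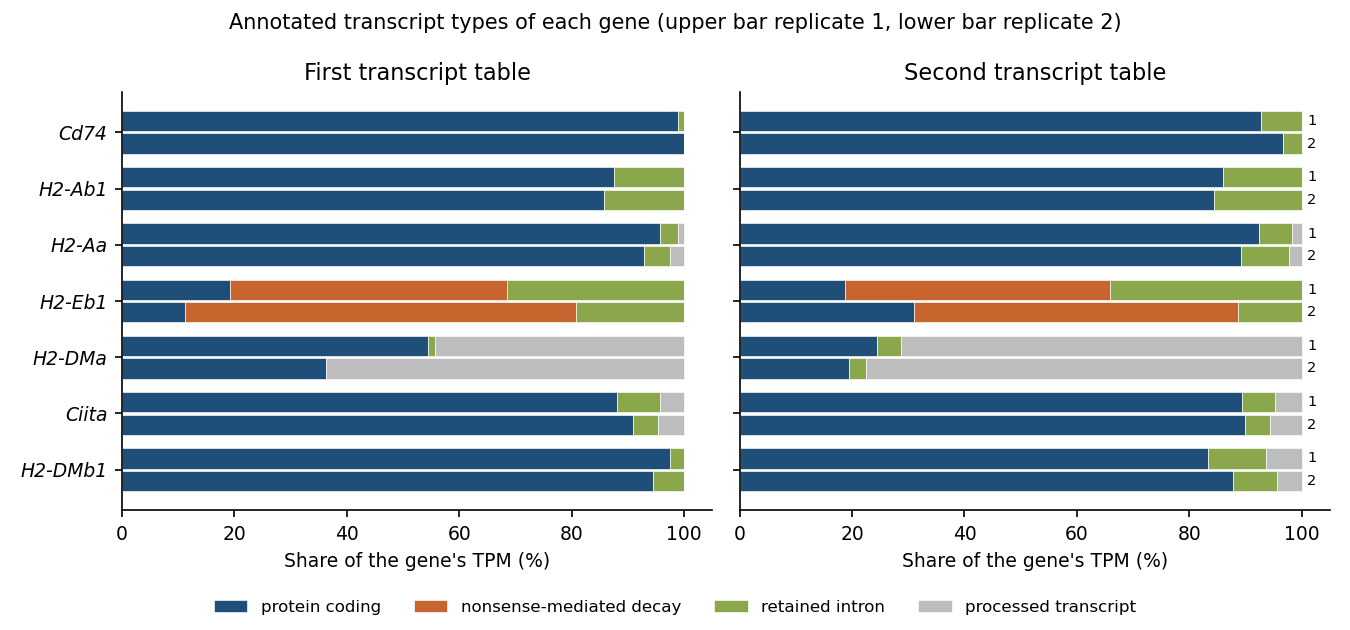
Share of each gene's TPM (percent) by annotated transcript type, for the first transcript table (left) and the second (right), with replicate 1 above replicate 2. H2-Eb1 is the gene with a decay-type share (49.4% and 69.6% on the left), and H2-DMa has the largest processed-transcript share.

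No other class II gene was detected. H2-Eb2 had 0.110 TPM in each library, H2-DMb2 had 0.160 and 0.0800, H2-Oa, an alpha chain of the inhibitor H2-DO, had 0.190 and 0.360, and its partner H2-Ob had 0.24 and 0.10. H2-Ea-ps had 0 counts in both libraries, and the symbol H2-Ea itself was not found in the tables. As background, C57BL/6 mice are known to lack I-E at the cell surface because their H2-Ea allele is defective, so H2-Eb1 was measured here without its partner. Per base of effective length, H2-Eb1 was at least 421.3-fold higher than H2-Ea-ps in replicate 1 and at least 123-fold higher in replicate 2, setting H2-Ea-ps at 3 counts per library. H2-Eb1 had 372.5 and 248.2 times the TPM of H2-Eb2 and H2-DMb1 had 50.4 and 63.8 times that of H2-DMb2. The second tool put the latter ratio at 17.4 and 6.98, and H2-Ob above 1 TPM, at 1.28 and 2.19, so those calls depend on how reads were assigned. The class II interval, from H2-Oa to H2-Ea-ps (34092340 to 34344645 of chromosome 17), holds 23 annotated genes, of which 14 are protein-coding and 10 of these were detected. The undetected 4 were the protein-coding class II genes just named. Brd2 and the class I pathway genes Tap1, Tap2, Psmb8 and Psmb9, which lie between the class II genes, were all detected.

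**Figure D3:**
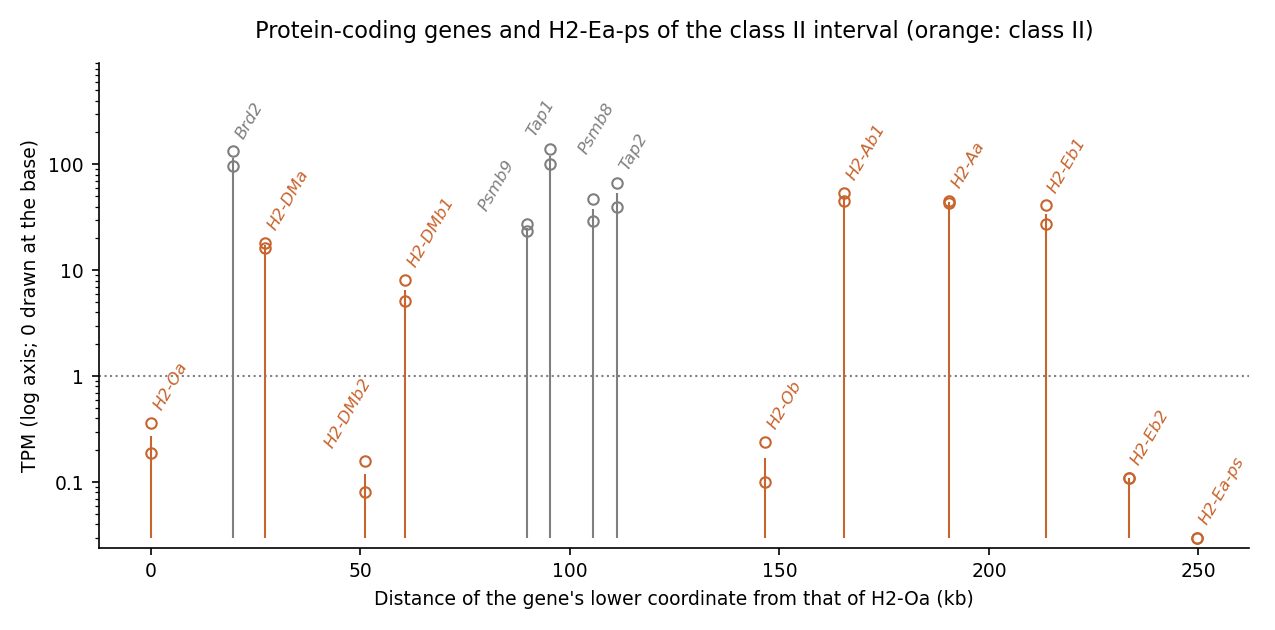
TPM (log axis) of the protein-coding genes and H2-Ea-ps along the class II interval, by distance in kb from H2-Oa; circles are the 2 libraries, stems reach their mean and the dotted line is 1 TPM. The 5 H2 genes described here (orange, above the line) are interspersed with class II genes below it.

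Promoter windows were used for 4 of the 7 genes (H2-Aa, H2-Eb1, H2-DMa and H2-DMb1) and for 4 of the other class II genes. They were RefSeq windows of 250 bases before to 50 after a start (GRCm38.p6). Windows of the remaining genes were left out, so their promoters are not described. Both strands were searched for AACNGATG, the core of an X box, for CTGATTGG, a Y box, and for the shorter ATTGG contained in the latter. H2-Eb1 held AACNGATG from position -89 and CTGATTGG from position -62, with 22 bases between the X core and ATTGG. H2-Eb2 held both as well, from -130 and -103, with the same 22 bases between. H2-DMb1 and H2-DMb2 held AACNGATG from -92 and -121, each followed after 23 bases by ATTGG. H2-Aa and H2-Oa held CTGATTGG, from -51 and -46, without AACNGATG in these letters, and H2-DMa held neither in its 2 windows, which do not cover the start of H2-DMa-205. Of all 32851 windows, 2.32% held AACNGATG, 4.10% held CTGATTGG, 37.4% held ATTGG and 0.0944% held both AACNGATG and CTGATTGG. A match is a description of letters and not a measured site. The GENCODE start of H2-DMb1 lies 119 bases upstream of the RefSeq start used here, and that of H2-DMb2 lies 1942 bases upstream. The AACNGATG and ATTGG of both therefore lie within their GENCODE genes, and the stretch of H2-DMb1 is not shown. The stretches from -130 to -21 are shown because genes at very different levels, H2-Eb1 and the undetected H2-Eb2, share AACNGATG and CTGATTGG, and H2-DMb2, also undetected, shares AACNGATG and ATTGG with them but not CTGATTGG. The window of H2-Ob, not shown, held ATTGG from -57 and neither of the longer motifs. Capitals mark AACNGATG, CTGATTGG and ATTGG or its reverse complement. H2-Aa lies at chr17:34287844-34287953 (minus strand), H2-Eb1 at chr17:34305737-34305846, H2-Eb2 at chr17:34325545-34325654 and H2-DMb2 at chr17:34145119-34145228 (plus strand).
H2-Aa: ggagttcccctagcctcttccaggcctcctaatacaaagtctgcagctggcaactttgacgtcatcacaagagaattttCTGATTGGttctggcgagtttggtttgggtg
H2-Eb1: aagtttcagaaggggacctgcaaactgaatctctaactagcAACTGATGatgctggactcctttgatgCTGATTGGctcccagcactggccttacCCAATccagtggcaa
H2-Eb2: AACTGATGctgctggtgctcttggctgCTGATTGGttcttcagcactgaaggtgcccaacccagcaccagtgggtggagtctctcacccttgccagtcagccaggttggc
H2-DMb2: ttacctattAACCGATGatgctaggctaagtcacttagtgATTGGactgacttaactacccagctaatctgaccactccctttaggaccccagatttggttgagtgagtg

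The partners of Ciita at these promoters were all present. All 7 genes of the RFX, NF-Y and CREB complex were detected, with medians of 3.03 and 4.99 TPM. Rfxank, a subunit of RFX, was the lowest in replicate 1 at 1.06 TPM (2.12 in replicate 2; by the second tool 0.70 and 1.63), and Nfya, a subunit of NF-Y, had 24.6 and 35.4 TPM. Of 7 factors known to act at the Ciita promoters, 6 were detected. Irf1, an interferon-induced factor that acts at the pIV promoter, had 146.5 and 130.9 TPM, above 6 of the 7 class II genes. Irf4 stayed below 1 TPM, at 0.400 and 0.550. The interferon gamma receptor chains Ifngr1 (34.5 and 31.6 TPM) and Ifngr2 (16.98 and 23.45 TPM) and the kinases Jak1 and Jak2 were detected, while Ifng itself had 0.0200 TPM in replicate 1 and 0 in replicate 2.

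All 9 genes of class II peptide loading and turnover were detected, with medians of 83.3 and 85.6 TPM, above 6 of the 7 class II genes. Ctsb, a lysosomal protease, was the highest at 1521 and 1546 TPM. Ctss, a protease that cleaves Cd74 in antigen-presenting cells, had 927.7 and 829.8 TPM, 4.51 and 4.25 times the TPM of Cd74. Ifi30, a lysosomal thiol reductase, was the lowest at 7.59 and 8.62 TPM. March1, the ubiquitin ligase that removes class II from the surface, had 14.9 and 17.1 TPM, and Cd83, known to oppose it, had 83.3 and 85.6 TPM. Of the class I genes, H2-K1 and Nlrc5 were much higher than their class II counterparts. H2-K1 had 47.7 and 59.6 times the TPM of H2-Ab1. Nlrc5, the class I coactivator related to Ciita, had 12.6 and 14.3 times the TPM of Ciita. Tap2, also on the class I list, had 66.4 and 39.7 TPM, which was below H2-Ab1 in replicate 2.

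Markers of other cell types known to be rich in class II RNA were low. Of 6 B cell markers, Cd22 alone was detected (7.17 and 5.45 TPM). Cd79a had 0 counts in both libraries and Pax5 had 1 and 0, and the list summed to 7.51 and 6.25 TPM. Of 9 dendritic cell markers, Batf3 alone was detected (3.30 and 1.41 TPM), Flt3 had 0.140 and 0.0700 TPM and Cd209a 0 counts in both, and the list summed to 5.86 and 3.84 TPM. The summed level of the 7 class II genes was 376.3 and 342.1 TPM. The part of such cells in the class II levels was not tested.

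**Figure D4:**
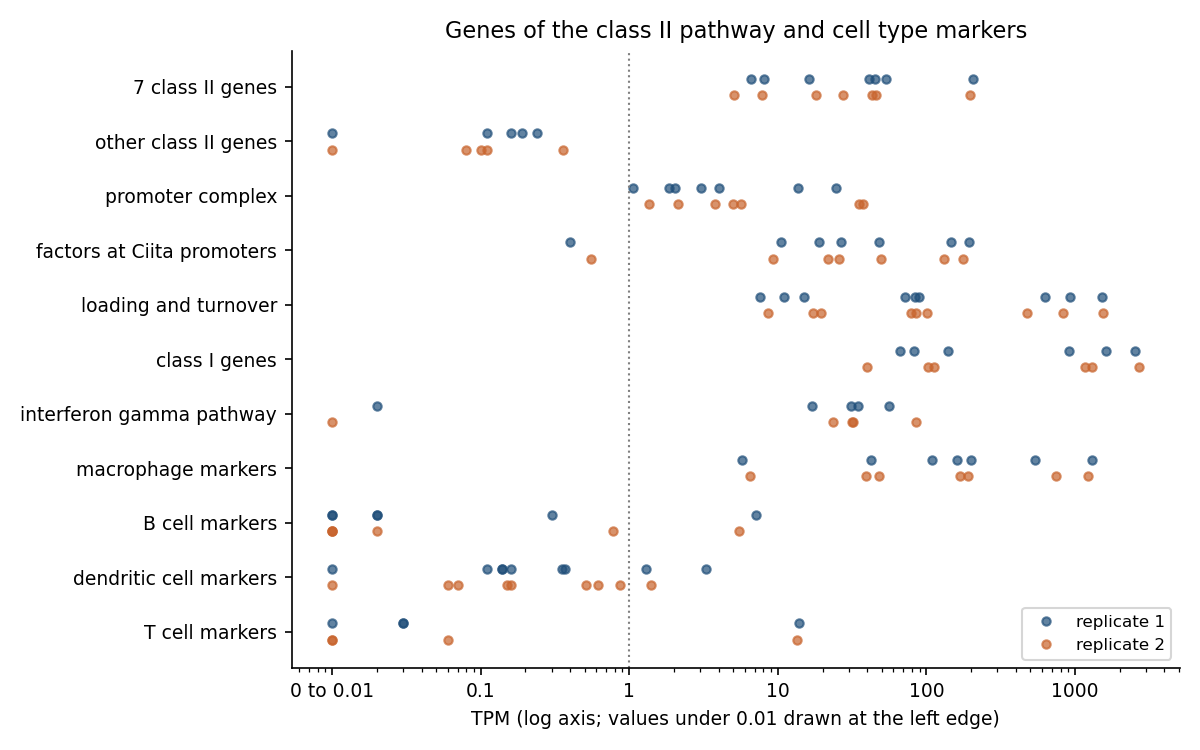
TPM (log axis) of the 7 class II genes and of the genes of each pathway and marker list, 1 point per gene and library. The other class II genes lie below the dotted line of 1 TPM and the genes of peptide loading and turnover at or above 7.59 TPM.

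By TMM-scaled counts, all 7 genes were lower in replicate 2 than in replicate 1, a direction that turned for 2 of them on the TPM of the gene tables and for 5 on the TPM of the second tool. H2-DMb1 had 455.8 and 121.9 expected counts and a log2 ratio of replicate 2 over replicate 1, on TMM-scaled counts, of -1.31. H2-Eb1 had 1743 and 491 counts and a ratio of -1.24. H2-Ab1 had 2392 and 850 counts and a ratio of -0.91. These 3 genes encode beta chains, and the alpha chains H2-DMa (492.3 and 192.9 counts, -0.76) and H2-Aa (2138 and 894 counts, -0.67) were lower by less. This grouping by chain was not planned, and the differences between genes were not tested. Ciita (1089 and 447 counts) and Cd74 (10501 and 4324 counts) both had a ratio of -0.70. All 7 passed the exact two-sided binomial test between the libraries, with Benjamini-Hochberg adjusted p from 5.76e-10 for H2-DMa to 8.48e-165 for Cd74. That test covers counting error and compares these libraries, not conditions. It called 59.9% of the 14698 genes tested, and 30.2% were called lower in replicate 2, while the edgeR estimate of the spread between the libraries was a biological coefficient of variation of 0.335.

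The median log2 ratio of the 7 genes, relative to that of all tested genes, was -0.77, and 3.60% (below H2-DMb1) to 14.5% (below H2-Aa) of the genes tested had a lower ratio. All 7 macrophage markers were also called lower in replicate 2, with a median of -0.75, as were 8 of 9 genes of loading and turnover and all 6 class I genes (median -0.99). Of the promoter complex, 1 of 7 was called lower and 2 higher. Mitochondrial RNA moved the other way, and its part in these ratios was not tested. By TPM the direction depended on the gene and the table. In the gene tables H2-DMa and Ciita were higher in replicate 2 and the other 5 lower, while by the second tool 5 were higher (H2-Aa, H2-Ab1, H2-DMa, Cd74 and Ciita) and H2-Eb1 and H2-DMb1 lower. On the scale of log2(TPM + 1) the median of all tested genes was itself 0.43 in the gene tables and 0.73 by the second tool. Each of the 7 genes lay below that median in both, Ciita being the highest at 0.23 and 0.63.

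**Figure D5:**
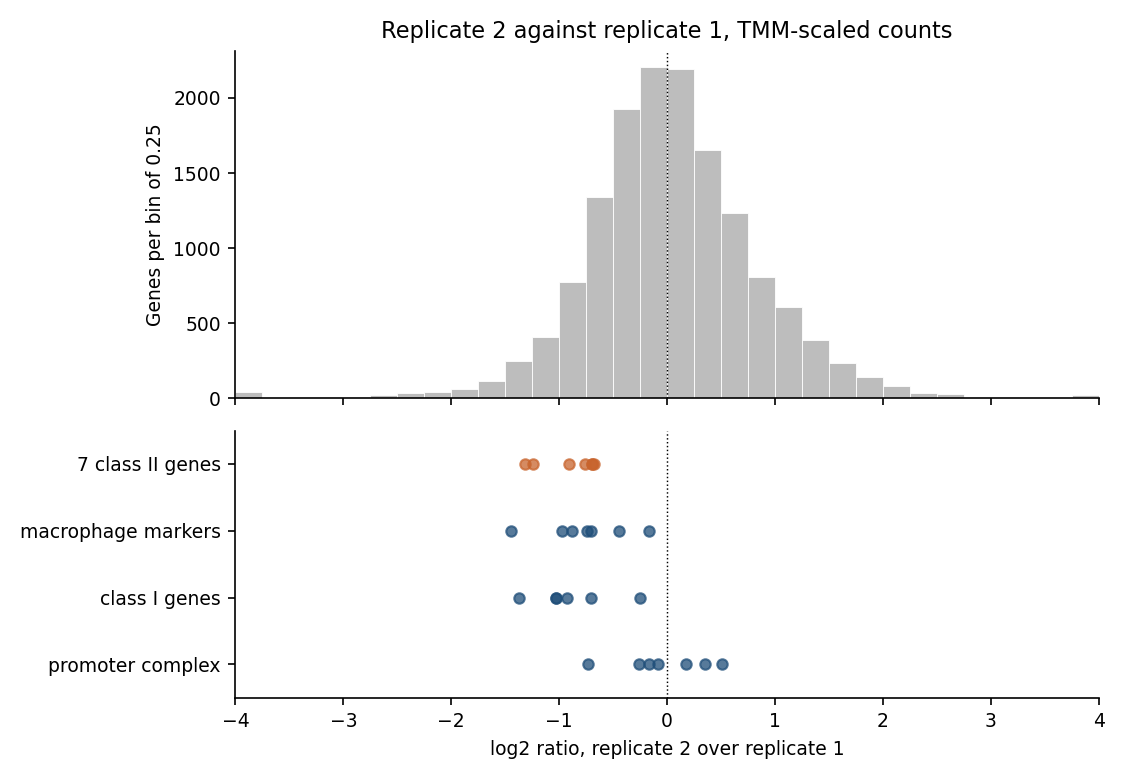
Above, the number of tested genes by log2 ratio of replicate 2 over replicate 1 on TMM-scaled counts (ratios beyond 4 or -4 are in the end bins); below, the same ratio for each gene of 4 lists. The 7 class II genes lie between -1.31 and -0.67 on this scale; by TPM, 2 of them (gene tables) or 5 (second tool) are higher in replicate 2.

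The protein-coding genes closest in level to each of the 7, by Euclidean distance in log2(TPM + 1) over the 2 libraries, are named as a description only, since 2 points leave many genes near each other. For Ciita these were Iws1 (6.49 and 7.84 TPM) and Maff, and for Cd74 they were Slc6a6 (196 and 199.1 TPM) and Rrbp1. H2-Aa was closest to the interferon-induced GTPase gene Ifi47 (45.3 and 43.6 TPM) and to Clec4a3, and H2-Ab1 to Bri3 and Ebi3. H2-Eb1 was closest to Tecpr1 and Nod1, H2-DMa to Kmt2c and Selenos, and H2-DMb1 to Atox1 and Tsen34. No class II gene was among the 2 closest of another.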

How the data were processed

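Nuclear total RNA depleted of ribosomal RNA was measured in 2 libraries of 1 group. The members and gene lists were chosen with earlier results of these data known. Gene and transcript tables, per the file headers, hold expected counts (estimated counts, rounded here to whole numbers for tests) and TPM, with RSEM-style column names; the authors' IsoPct is a transcript's percent of its gene's TPM. The deposited interval bounds (entered as a score) lie on the TPM scale. A further deposited transcript table (kallisto-style columns) was summed per gene. Reference: mm10 with GENCODE M21, per the README deposited with each sample. Tools, versions and strand setting are not given in the sources used here.

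Rows naming no gene (1.79% and 0.318% of counts) were left out. Genes averaging 10 counts or more were compared between the libraries by an exact two-sided binomial test on TMM-scaled sizes (edgeR 4.0.16, R 4.3.3, scipy 1.17.1; Benjamini-Hochberg, threshold 0.05; prior count 0.5 for ratios), checked on simulated data. The simulated counts held counting error only, at unscaled library sizes, so that check does not cover the spread between the libraries. This spread was edgeR's common biological coefficient of variation. DESeq2 1.42.0 size factors were an alternative. Python 3.11.15, numpy 2.4.6, pandas 2.3.3 and matplotlib 3.10.9 were used.

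Named genes were the 7 members and the lists given in the text, of which the highest, the lowest and those a result turns on are named, plus the 2 nearest genes in level. A few genes of these lists are counted but not reported here by name. Percentiles count protein-coding genes with a lower value. Retained-intron, coding and decay-type shares were compared over protein-coding genes that passed the same filter and have a transcript of that type.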

Additional observations from a re-analysis of the deposited data

How the results depend on the processing

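All 7 genes remained detected under every alternative tried (the second transcript table, posterior mean TPM, TPM rescaled without short and mitochondrial RNAs, either library alone, and thresholds of 0.5 or 5 TPM). Of these, either library alone, the threshold of 0.5 TPM and the rescaling, which raises the levels, could not have lost a gene. All 7 also differed between the libraries with DESeq2 size factors, library sizes alone, no count filter or the second transcript table. The median of the 7 genes, 34.1 TPM, was 18.8 in the second transcript table and 156.6 after rescaling without short and mitochondrial RNAs, the latter by construction. With either library alone it ranged from 27.3 to 41.0. The log2 ratio of replicate 2 over replicate 1 turned on the TPM of the gene tables for H2-DMa (0.17) and Ciita (0.26). On the TPM of the second transcript table, added after the values were seen, it turned for H2-Aa (0.34), H2-Ab1 (0.085), H2-DMa (0.36), Cd74 (0.28) and Ciita (0.75); the cause was not tested. The ratio of H2-DMa to H2-DMb1 (1.42 in log2) became 0.30 on coding transcripts, an alternative added after the values were seen. Leaving out a library leaves no test between libraries, and no paired analysis was possible because there is 1 group. With 2 libraries and no control group, no effect of Lipid A can be read from these levels.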

Other observations

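Receptors of class II molecules were looked up after the other values had been seen. Cd4, known in mice mainly from T cells, was listed at 13.9 TPM in replicate 1 and 13.5 TPM in replicate 2, from 1543 and 747 expected counts, a level above that of Ciita in both libraries. Cd3e, which T cells require for their antigen receptor, had 0 counts in both libraries, Cd3d had 2 and 0, and Cd8a had 4 and 3. The second tool put Cd4 at 6.55 and 8.68 TPM and Cd3e at 0.034 and 0.077, but Cd3d at 1.00 and 5.57, so the low level of Cd3d depends on how reads were assigned. Lag3, the inhibitory receptor related to Cd4, lies near Cd4 on chromosome 6 and had 3.18 and 1.5 TPM (second tool 1.81 and 3.45). These are values only, and the cells that held this RNA were not identified.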
